A study of Mus musculus with 86 samples.

Results

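The loci of 10 genes of 2 signalling pathways were examined in peak lists of the transcription factor SOX2 and the insulator protein CTCF. The LIF-STAT3 genes were Lifr, Il6st, Jak1, Stat3 and Socs3, and the BMP-ID genes were Bmp4, Bmpr1a, Id1, Id2 and Id3. Every peak interval within 50 kb of one of these gene bodies was taken, on the mouse genome build mm10 with RefSeq gene boundaries (GRCm38.p6). This gave 505 of the 327957 intervals in the 8 lists. The cells were mouse embryonic stem cells of the strain 129S5/SvEvBrd, grown on gelatin in medium with serum and leukemia inhibitory factor (LIF). Mitotic cells had been held with nocodazole, a drug that blocks spindle microtubules, at 100 ng/ml for 6 h and were collected by shake-off. Asynchronous cells were untreated. Each factor had 2 mitotic and 2 asynchronous ChIP-seq libraries, with 1 peak list per library. All groups shared the same strain and the same LIF-containing medium. Whether the replicates are separate cultures is not in the labels, so p-values measure only the spread between these libraries, which may be technical.

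LIF binds a receptor made of LIFR and gp130, the product of Il6st, and the kinase JAK1 bound to that receptor phosphorylates STAT3. STAT3 then acts in the nucleus, and SOCS3, one of its targets, blocks the receptor complex in a feedback loop. BMP4 signals through type I receptors such as BMPR1A to SMAD proteins, which switch on Id1, Id2 and Id3. ID proteins hold back basic helix-loop-helix factors, and in mouse embryonic stem cells LIF and BMP together sustain self-renewal.

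The mitotic SOX2 lists held 1976 and 408 intervals over the genome and the asynchronous ones 90266 and 63504. For CTCF the mitotic lists held 20142 and 15338 intervals, against 68328 and 67995 in the asynchronous lists. Read totals were not used here, but the background coverage could be solved from the deposited values. It was 5.47 and 2.92 reads in the mitotic SOX2 libraries, against 5.44 and 3.50 reads in the asynchronous ones. For CTCF it was 7.56 and 7.81 reads in the mitotic libraries, against 6.51 and 7.32 reads in the asynchronous ones. The labelled cell type was checked at 10 pluripotency genes, among them Pou5f1, Nanog and Esrrb. Each had 7 to 18 SOX2 regions found in both asynchronous libraries. Over 21887 protein-coding genes the median was 4, and 85.7% had at least 1. Genes outside this list reach such numbers too, such as Zfp423 with 29, so this is a weak check.

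SOX2 peaks of asynchronous cells lay at the start of several members, and the RefSeq promoter windows (250 bases before to 50 after the start, GRCm38.p6) are printed here for the 4 that the results below return to. At Socs3, Stat3 and Id2 the SOX2 summits of both asynchronous libraries fell inside the window. At Bmpr1a both asynchronous CTCF summits did, and SOX2 intervals overlapped it. All are given 5′ to 3′ on the minus strand, at chr11:117969317-117969616 for Socs3, chr11:100939491-100939790 for Stat3, chr12:25096043-25096342 for Id2 and chr14:34502497-34502796 for Bmpr1a. Capitals mark GGCGCC, a motif of SMAD1 and SMAD5, and AGGGGGC or its reverse complement, a part of the CTCF core.
Socs3: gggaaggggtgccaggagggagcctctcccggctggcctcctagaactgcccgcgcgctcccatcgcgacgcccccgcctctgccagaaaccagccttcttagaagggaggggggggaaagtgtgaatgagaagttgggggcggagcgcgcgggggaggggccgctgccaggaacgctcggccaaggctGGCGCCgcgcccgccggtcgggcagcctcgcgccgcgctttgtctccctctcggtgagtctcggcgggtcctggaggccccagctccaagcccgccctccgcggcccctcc
Stat3: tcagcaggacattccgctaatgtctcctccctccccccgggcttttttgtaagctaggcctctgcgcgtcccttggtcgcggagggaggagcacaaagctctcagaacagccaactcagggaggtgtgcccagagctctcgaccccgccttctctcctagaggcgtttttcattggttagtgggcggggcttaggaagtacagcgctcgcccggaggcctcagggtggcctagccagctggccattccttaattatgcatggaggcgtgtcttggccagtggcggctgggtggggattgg
Id2: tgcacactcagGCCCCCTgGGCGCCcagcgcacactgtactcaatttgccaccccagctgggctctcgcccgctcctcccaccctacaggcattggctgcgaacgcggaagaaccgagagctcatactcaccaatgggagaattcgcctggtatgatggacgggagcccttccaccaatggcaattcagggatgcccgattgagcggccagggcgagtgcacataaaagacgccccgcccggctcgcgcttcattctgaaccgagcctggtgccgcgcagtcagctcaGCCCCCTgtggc
Bmpr1a: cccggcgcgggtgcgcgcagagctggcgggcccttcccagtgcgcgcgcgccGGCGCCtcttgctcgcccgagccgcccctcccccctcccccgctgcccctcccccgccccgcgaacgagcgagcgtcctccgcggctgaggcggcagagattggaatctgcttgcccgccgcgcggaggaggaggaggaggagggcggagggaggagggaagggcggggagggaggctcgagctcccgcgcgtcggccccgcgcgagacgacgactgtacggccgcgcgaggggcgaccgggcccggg
RefSeq windows were found for 9 of the 10 members, with 10 windows in all since Lifr had 2. Id1 had none. The SOX motif CATTGTT was in 0 of these 10 windows, against 3.78% of all 32851 windows. TTCCNGGAA, a strict form of the STAT motif, was in 0 of 10, against 1.15% of all windows. Looser forms were not searched, and the printed Socs3 window holds ttcttagaa, so this count does not show that STAT sites are absent. AGGGGGC was in 1 of 10, that of Id2, against 10.6% of all. GGCGCC was in 5 of 10 (Jak1, Socs3, Id2, Bmpr1a and 1 window of Lifr), against 11.9% of all. The windows with it were 63.3% to 81.3% G and C, and the member windows without it 53.3% to 68.3%. The share of all windows was not matched for base composition, so no enrichment is read from this. All motifs were searched on both strands, and in Id2 a match of AGGGGGC lay 1 base away from GGCGCC with no overlap. A match is only a run of letters in this window.

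In mitotic cells few SOX2 intervals were called at the 10 loci. The mitotic libraries held 7 and 2 SOX2 intervals there (mean 4.5 ± 3.54, SD, n = 2), against 151 and 115 in the asynchronous libraries (mean 133 ± 25.5, SD, n = 2). The mean was 29.6-fold lower in mitotic cells. The groups did not overlap, but a two-sided exact permutation test over 2 against 2 libraries gave p = 0.333, the smallest it allows. CTCF intervals numbered 27 and 24 in the mitotic libraries (mean 25.5 ± 2.12), against 95 and 84 in the asynchronous libraries (mean 89.5 ± 7.78, SD, n = 2 each). That mean was 3.51-fold lower in mitotic cells, again with no overlap and an exact permutation p of 0.333. The whole lists fell as well. SOX2 held 1976 and 408 intervals over the genome in mitotic cells, against 90266 and 63504 in asynchronous cells. CTCF held 20142 and 15338, against 68328 and 67995. A drop is thus not particular to these loci. Lists called separately cannot tell binding in fewer cells apart from weaker binding in each cell.

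**Figure D1:**
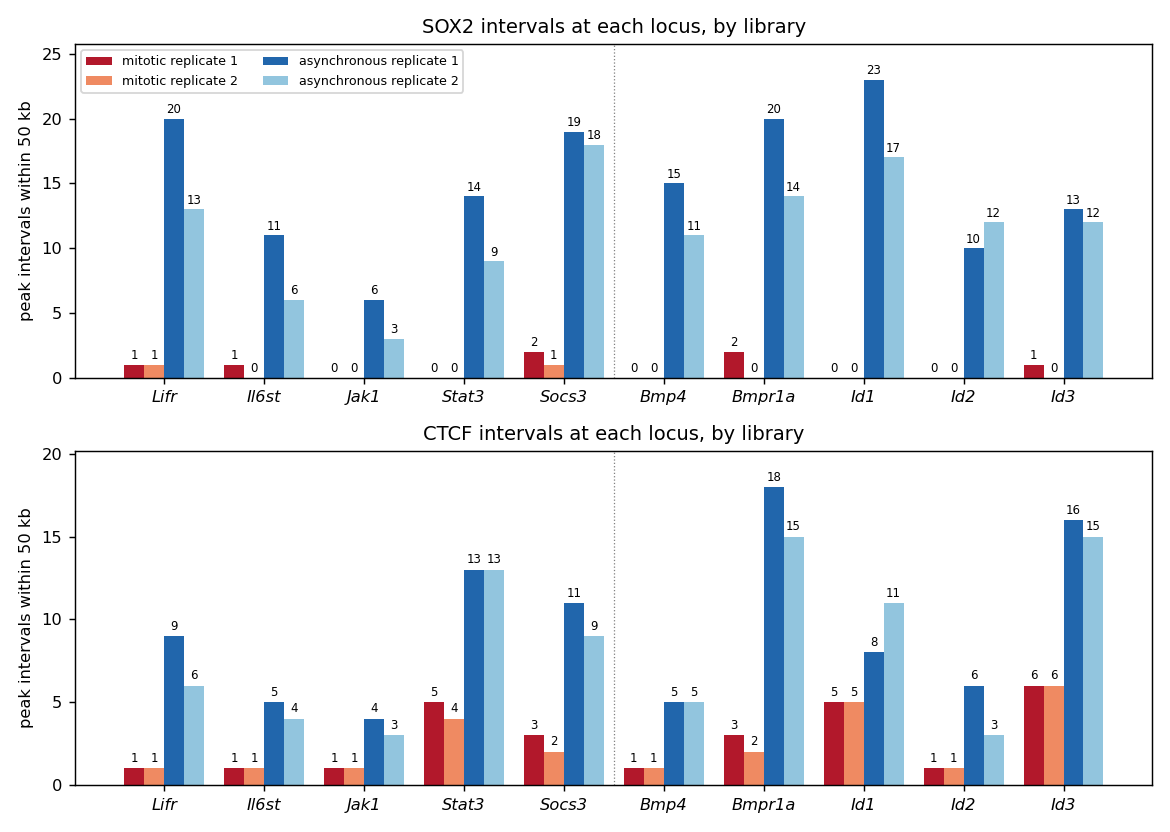
Peak intervals within 50 kb of each gene (vertical axis, number) in each mitotic and asynchronous library, SOX2 above and CTCF below, with the LIF-STAT3 genes left of the dotted line and the BMP-ID genes right of it. Mitotic SOX2 bars reach at most 2 at any gene, while mitotic CTCF bars reach 6 at Id3.

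Among the receptor subunits, Lifr had 1 and 1 SOX2 intervals in the mitotic libraries, against 20 and 13 in the asynchronous ones. Il6st had 1 and 0 in mitotic cells, against 11 and 6 in asynchronous cells. Bmpr1a, the BMP receptor, had 2 and 0, against 20 and 14. Of the 3 receptors only Lifr thus had an interval in mitotic replicate 2. The signal carriers had no mitotic SOX2 interval at all: Jak1 had 0 and 0 in mitotic cells, against 6 and 3 in asynchronous cells. Stat3 likewise had 0 and 0, against 14 and 9. The ligand gene Bmp4 had 0 and 0 SOX2 intervals in mitotic cells, against 15 and 11 in asynchronous cells. All 3 loci were thus called for SOX2 in both asynchronous libraries and in neither mitotic one. Having none called was the usual case: 17.6% of 21887 protein-coding genes had a SOX2 region called in 1 or both mitotic libraries.

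Of the target genes, Socs3 had 2 and 1 SOX2 intervals in mitotic cells, against 19 and 18 in asynchronous cells. Id1 had 0 and 0, against 23 and 17, the highest asynchronous number in replicate 1 among the 10 genes. Id2 had 0 and 0 in mitotic cells, against 10 and 12 in asynchronous cells. Id3 had 1 and 0, against 13 and 12. Within the Id genes, which are all induced by BMP, 1 interval in 1 mitotic library was therefore all that was called. Id1, Id2 and Id3 held 14, 8 and 9 SOX2 regions found in both asynchronous libraries. Few calls were usual, as 3.37% of all such regions of the genome were called in mitotic replicate 1 and 0.755% in replicate 2.

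CTCF intervals were present at each of the 10 loci in both mitotic libraries. Counted by asynchronous regions, 63.6% of 21887 protein-coding genes had one called in both mitotic CTCF libraries. Id3 had the most, with 6 and 6 in mitotic cells, against 16 and 15 in asynchronous cells. Id1 had 5 and 5, against 8 and 11. Stat3 had 5 and 4, against 13 and 13. These 3 loci held the most mitotic intervals of either factor. Socs3 had 3 and 2 in mitotic cells, against 11 and 9 in asynchronous cells, and Bmpr1a had 3 and 2, against 18 and 15. Lifr, Il6st, Jak1, Bmp4 and Id2 had 1 and 1 in mitotic cells, against 3 to 9 in the asynchronous libraries.

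To follow single sites, overlapping asynchronous peaks of a factor were joined, and those joined regions that both asynchronous libraries supported were kept. A mitotic library counted as calling a region where any of its peaks overlapped it by 1 bp or more. The loci held 92 SOX2 and 66 CTCF regions. Mitotic replicate 1 called 8 SOX2 regions (8.70%, 95% Wilson interval 4.47 to 16.2), where 3.37% of all 51672 SOX2 regions of the genome were called. Mitotic replicate 2 called 2 (2.17%, 0.598 to 7.58), where 0.755% of all were called. Both mitotic libraries called 2 of the 92 regions (2.17%, against 0.675% of all) and replicate 1 alone called 6. One or both thus called 8 (against 3.45% of all), and 84 went uncalled in mitotic cells (91.3%, against 96.6% of all). The 8 regions of replicate 1 hold 7 intervals within the window, because 1 region at the edge of the Bmpr1a window was called by an interval just outside it.

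Of the 66 CTCF regions, mitotic replicate 1 called 25 (37.9%, 27.1 to 49.9), against 33.0% of all 57992 CTCF regions. Mitotic replicate 2 called 23 (34.8%, 24.5 to 46.9), against 25.4% of all. Both libraries called 23 (34.8%, against 24.5% of all) and replicate 1 alone called 2 more. That made 25 in one or both (against 34.0% of all), and 41 went uncalled in mitotic cells (62.1%, against 66.0% of all). The mean share called was 36.4% ± 2.14 for CTCF and 5.43% ± 4.61 for SOX2 (SD, n = 2 mitotic libraries each). CTCF thus exceeded SOX2 by 30.9 percentage points, and the exact two-sided permutation test again gave its smallest p of 0.333. The replicates of the 2 factors did not overlap at the loci. Over all regions of the genome the mean shares were 29.2% ± 5.36 for CTCF and 2.06% ± 1.85 for SOX2, so a gap is not particular to the loci. Each factor has its own antibody, so the difference between factors includes any difference between antibodies. The Wilson intervals cover counting error over regions only.

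**Figure D2:**
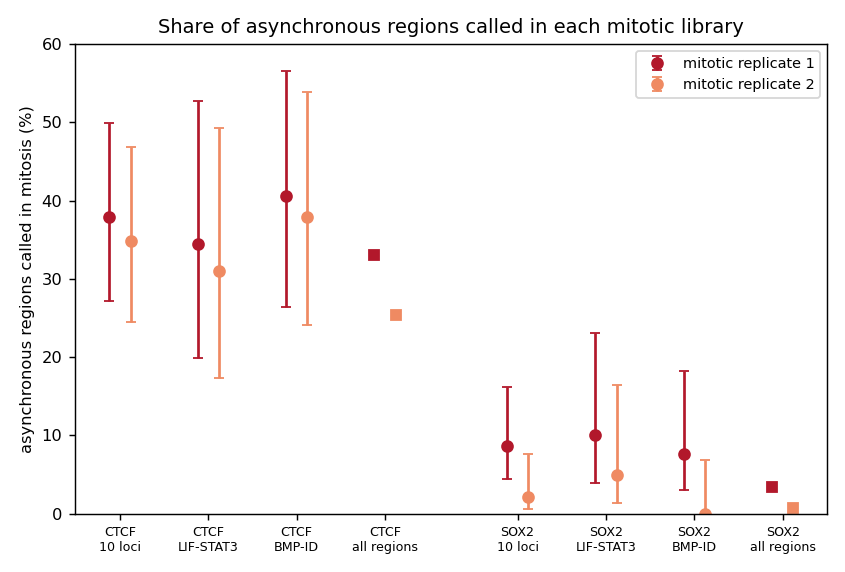
Share of asynchronous regions called in each mitotic library (vertical axis, percent) for CTCF at left and SOX2 at right, at all 10 loci, at the LIF-STAT3 and BMP-ID loci, and over all regions of the genome (squares). Bars are 95% Wilson intervals. CTCF shares at the loci lie between 31.0% and 40.5% and SOX2 shares between 0% and 10.0%.

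The loci were also counted by pathway. Over the genome, mitotic replicates 1 and 2 called 3.37% and 0.755% of all SOX2 regions, and 33.0% and 25.4% of all CTCF regions. At the LIF-STAT3 loci 4 and 2 of 40 SOX2 regions were called in the mitotic libraries (10.0% and 5%). At the BMP-ID loci 4 and 0 of 52 were called (7.69% and 0%, with a 95% Wilson upper bound of 6.88%; a limit of 3 counts would be 5.77%). For CTCF 10 and 9 of 29 regions were called at the LIF-STAT3 loci (34.5% and 31.0%). At the BMP-ID loci 15 and 14 of 37 CTCF regions were called (40.5% and 37.8%). The Wilson intervals of the branches overlapped for both factors in each library, and the difference itself was not tested. With 0.755% of all SOX2 regions called in replicate 2, the 0% at the BMP-ID loci is not read as particular to them.

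At least 1 CTCF region was called in both mitotic libraries at 10 of 10 members, against 63.6% of 21887 protein-coding genes (71.9% with one or both libraries). Some of these calls were weak. The only such region of Bmp4 had a fold of 2.64 and a −log10 q of 3.96 in mitotic replicate 2. The only one of Lifr had a fold of 4.91 in replicate 1, and that of Il6st 3.75 in replicate 2. These 3 would not be called in both at a fold of at least 5. A SOX2 region was called in both at 2 of 10, Lifr and Socs3, against 3.67% of protein-coding genes. No SOX2 region at the loci was called in both once peaks needed a −log10 q or a fold of at least 5, and only that of Socs3 was with summits within 100 bp. With 1 or both libraries it was 5 of 10, with Il6st, Bmpr1a and Id3 added, against 17.6% of protein-coding genes. Windows of different members hold different numbers of regions, so these counts describe the loci and compare no probabilities.

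**Figure D3:**
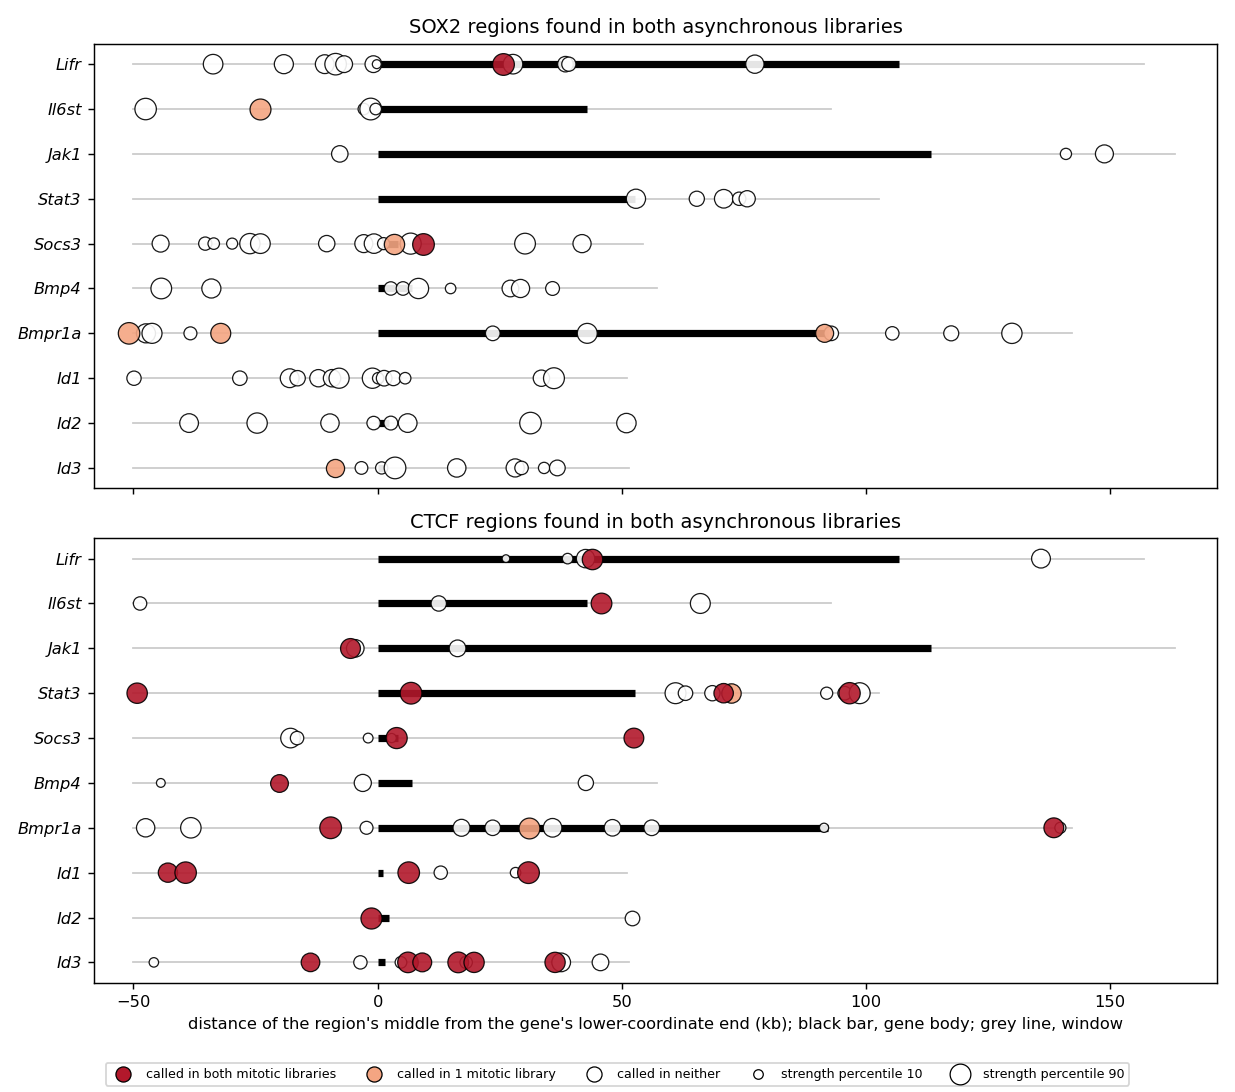
Regions found in both asynchronous libraries along each locus (horizontal axis, kb from the gene's lower-coordinate end; black bar, gene body), SOX2 above and CTCF below. Circle size gives asynchronous strength and fill the number of mitotic libraries that called the region: 2 SOX2 regions are dark, against 23 CTCF regions.

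The first SOX2 region called in both mitotic libraries lay inside the Lifr gene body at chr15:7115006-7117751, 12.6 kb before the RefSeq promoter start used here. Its deposited fold enrichment, the authors' ratio of summit coverage to local background, was 38.2 and 34.8 in the asynchronous lists. Solved from the deposited values, its summit held 24 and 18 reads in the mitotic libraries, against 315 and 193 reads in the asynchronous ones. The mitotic intervals were short, chr15:7115526-7115931 in replicate 1 and chr15:7115769-7115960 in replicate 2. Their summits lay 1177 and 1023 bp from the nearer of the asynchronous summits, inside the same broad asynchronous intervals. The mitotic intervals therefore covered neither asynchronous summit.

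The second region called in both lay before Socs3 at chr11:117973851-117976933, with its asynchronous summit 6.27 kb before the RefSeq start. Its folds were 26.96 and 29.08 in the asynchronous lists. The summit held 29 and 17 reads in the mitotic libraries, against 314 and 226 reads in the asynchronous ones. Here the mitotic summits lay 93 and 22 bp from the nearer asynchronous summit. In mitotic replicate 1 the local background was 6.66 reads at this summit and 5.90 reads at that of Lifr, where the lowest of that library was 5.47 reads.

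The Socs3 promoter carried a further SOX2 region, chr11:117968727-117970200, which mitotic replicate 1 alone called. Its summit held 25 reads in that library, against 121 and 84 reads in the asynchronous libraries. The mitotic interval, chr11:117969200-117969425, overlapped the printed Socs3 window, and its summit lay 113 bp after the start, outside that window. Over the same promoter a CTCF region (chr11:117969338-117970630) was called in both mitotic libraries. Its summit held 67 and 51 reads in mitotic cells, against 178 and 204 in asynchronous cells. This was the only SOX2 region called in a mitotic library that overlapped a CTCF region called in both.

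Bmpr1a had 3 SOX2 regions called in mitotic replicate 1 and none in replicate 2. One overlapped the gene start (chr14:34501699-34503531), with 27 reads at the mitotic summit, against 57 and 36 in asynchronous cells. Its mitotic interval (chr14:34502044-34502394) lay downstream of the printed Bmpr1a window. The second, at chr14:34378298-34379586 and nearer to other genes than to Bmpr1a, had 25 reads in mitotic replicate 1, against 65 and 69 in asynchronous cells. The third, at the window's edge (chr14:34358621-34361711), had 26 reads, against 262 and 144. All 3 mitotic summits lay within 100 bp of an asynchronous summit, at 35, 4 and 4 bp from the nearer one.

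Il6st and Id3 had 1 such region each. At Il6st the region chr13:112438707-112441243, 23.8 kb before the start, had 21 reads in mitotic replicate 1, against 128 and 77 in asynchronous cells. At Id3 the region chr4:136134709-136135694, 8.59 kb before the start, had 24 reads, against 48 and 33. Across the 8 called regions the mitotic summits thus held 17 to 29 reads, whether the asynchronous summits held 315 reads or 33. The lowest summits called anywhere in the mitotic SOX2 libraries held 18 and 15 reads and the median summits 28 and 23 reads. The deposited −log10 q of these mitotic peaks was 3.12 to 6.26, against lowest called values of 1.33 and 1.48 in the 2 lists.

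**Figure D4:**
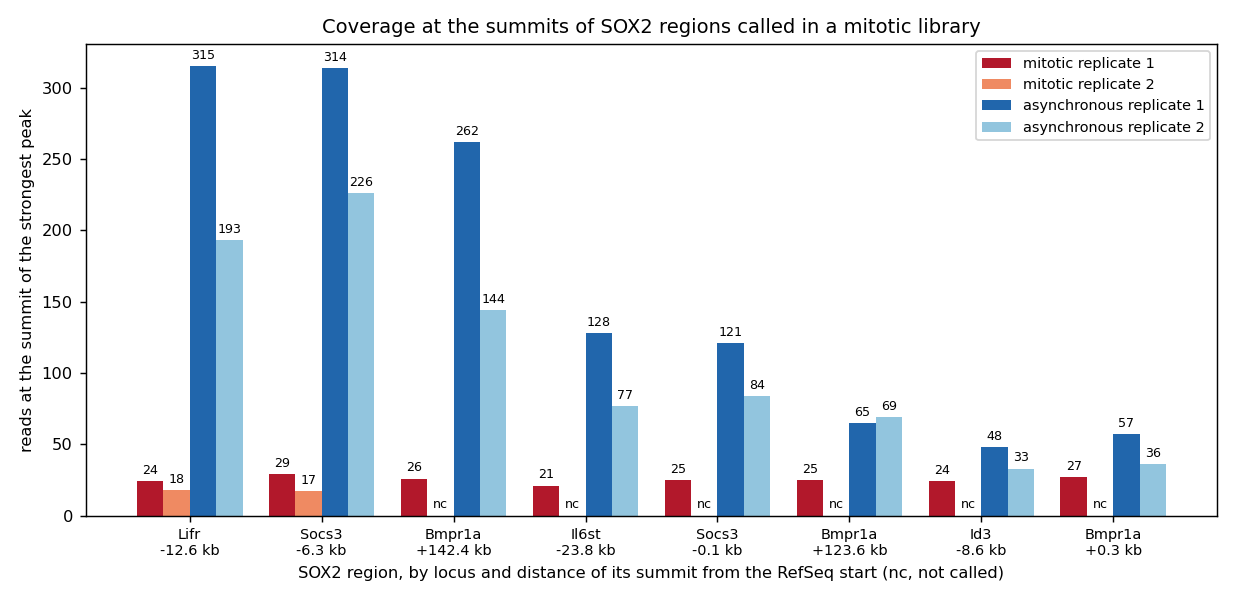
Reads at the summit of the strongest peak (vertical axis) in each library for the 8 SOX2 regions called in a mitotic library, ordered by the number of mitotic libraries and by asynchronous strength; nc means not called. Mitotic bars lie between 17 and 29 reads while asynchronous bars span 33 to 315 reads.

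Strong asynchronous SOX2 regions were also absent from the mitotic lists. Strength was taken as where the highest fold of a region ranks, as a percentile, within each asynchronous list, averaged over both. The strongest region of Il6st, chr13:112461962-112463369, stood at the 99.8 percentile, with 288 and 183 reads in asynchronous cells, 1.48 kb before the start. It was called in neither mitotic library, although it was nearly as strong as the Lifr region called in both. At Id3 the strongest region (chr4:136146518-136148269) lay 1.13 kb beyond the gene body at the 98.9 percentile, with 294 and 188 asynchronous reads. At Id2 it (chr12:25124260-25125970) lay 28.7 kb before the start at the 98.1 percentile, with 199 and 117 reads. Neither was called in mitotic cells.

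Lower strongest regions were found at the other members. That of Id1 (chr2:152771713-152773027) stood at the 91.2 percentile and that of Bmp4 (chr14:46338719-46339731) at the 89.4 percentile. The strongest of Stat3 (chr11:100939229-100940206) lay on the printed promoter window at the 75.4 percentile, with 69 and 53 asynchronous reads. That of Jak1 (chr4:101300548-101301099) stood at the 64.6 percentile, with 31 and 24 reads. None of these was called in a mitotic library, so the strongest SOX2 region was called in both at 2 members, in 1 library at Bmpr1a and in neither at 7. Among 18766 protein-coding genes with a SOX2 region the strongest was called in both for 2.71% and in neither for 90.3%.

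For CTCF the strongest region was called in both mitotic libraries at 10 of 10 members, against 59.9% of 19195 protein-coding genes with a CTCF region. At Lifr, Il6st, Socs3 and Bmp4 its fold was below 5 in at least 1 mitotic library, with 4.79 in replicate 2 at Socs3. The highest stood inside Stat3 (chr11:100892884-100894431, 99.7 percentile), with 60 and 52 reads in mitotic cells, against 328 and 310 in asynchronous cells. That of Id1 lay 28.6 kb from the gene, nearest to Bcl2l1, a survival gene (chr2:152766008-152768306), with 88 and 75 mitotic reads, against 323 and 297. That of Bmpr1a (chr14:34400965-34401934), 9.13 kb beyond the gene, had 78 and 61, against 345 and 320. These 3 stood at the top of the asynchronous CTCF lists, at the 99.6 percentile or above.

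The strongest CTCF regions of the other members stood lower in the asynchronous lists. Id2 (chr12:25092018-25093026, 0.773 kb beyond the gene) had 79 and 65 reads at the mitotic summits, against 176 and 146 in asynchronous cells. Id3 (chr4:136159722-136160955) had 47 and 49, against 137 and 133. Il6st (chr13:112509362-112510087) had 43 and 32, against 120 and 111. In each of these the mitotic summits lay below both asynchronous ones. Lifr (chr15:7133887-7135296) had 41 and 46 in mitotic cells, against 149 and 137. Jak1 (chr4:101145875-101146816) had 62 and 50, against 126 and 104. Bmp4 (chr14:46363117-46363683), the weakest at the 62.7 percentile, had 43 and 32, against 64 and 67. At all 10 members both mitotic summits of this region held fewer reads than either asynchronous summit, without scaling between libraries. The region was picked for its high asynchronous fold, which favours that order. The count of members is thus a description only.

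Further CTCF regions that were strong in asynchronous cells and called in both mitotic libraries were found at Id1 and Stat3. At Id1, chr2:152742099-152743155, 4.69 kb from the gene and nearest to Id1 itself, had 33 and 37 mitotic reads, against 243 and 226. Its mitotic folds were 2.64 and 3.04, at the 2.34 and 7.68 percentiles of the mitotic lists, so these calls were weak. The region chr2:152696274-152697610 had 76 and 47, against 199 and 182. At Stat3, chr11:100982910-100984029 had 67 and 46, against 169 and 178. All 3, also picked by asynchronous strength, had fewer reads in both mitotic libraries than in either asynchronous one. Of the mitotic intervals at the loci, 1 lay outside both asynchronous lists of its factor. It was a CTCF interval of replicate 1 in Socs3 (chr11:117967868-117968112) with 25 reads at its summit and a fold of 2.38. The share of such intervals over the genome is not given here, so this count is not read as particular to the loci.

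Median asynchronous strength was higher for called than for uncalled regions of both factors. The median strength of CTCF regions at the loci was the 86.9 percentile for those called in both mitotic libraries, 83.9 for 1 library and 43.2 for neither. Over all CTCF regions these medians were 84.3, 73.0 and 43.1. For SOX2 they were 99.5, 83.8 and 55.6 at the loci, and 94.5, 80.5 and 60.4 over all regions. The order by strength was thus the same at the loci as over the genome. The SOX2 medians at the loci rest on 2 regions for both libraries and 6 for 1, and the CTCF median for 1 library on 2. Regions called in both were also wider, with median widths of 2914.5 bp for SOX2 and 1009 bp for CTCF at the loci. The medians for neither were 708.5 and 517 bp. A wider region meets an overlap of 1 bp more easily, and width was not separated from strength. Among regions of at least the 90 percentile, 8 of 11 CTCF regions at the loci were called in both, against 81.2% of all such regions, and 9 of 11 in one or both, against 90.9%. Of 11 such SOX2 regions 2 were called in both, against 3.38% of all, and 4 in one or both, against 9.27%.

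**Figure D5:**
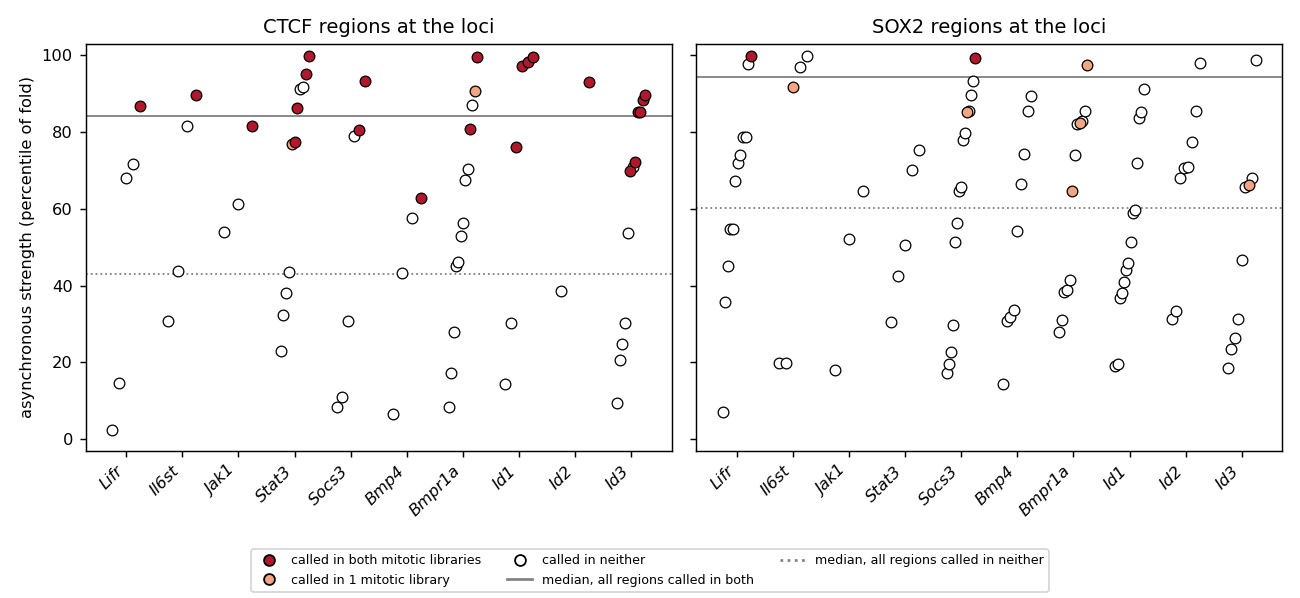
Asynchronous strength (vertical axis, percentile of fold averaged over both lists) of each region by member, CTCF at left and SOX2 at right, filled by the number of mitotic libraries that called it. Grey lines give the medians of all regions called in both (84.3 for CTCF, 94.5 for SOX2) and in neither (43.1 and 60.4). Dark CTCF points top every gene, while most SOX2 points near the top are open.

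Asynchronous SOX2 regions were dense at the short target genes. Socs3 had 14.4 regions per 100 kb of window and Id1 13.8, at the 99.5 and 99.4 percentiles of 21887 protein-coding genes. Id3 stood at the 94.0, Bmp4 at the 92.7 and Id2 at the 91.0 percentile. The receptors Bmpr1a and Lifr followed at 83.3 and 80.5, then Il6st at 57.3 and Stat3 at 54.9. Jak1 was lowest, with 1.41 regions per 100 kb and the 28.5 percentile. In CTCF density the members ran from the 22.5 percentile at Jak1 to the 95.1 percentile at Id3, and 5 of 10 lay above the median of all genes, against 9 of 10 for SOX2. Id1 had 14 SOX2 regions and none called in mitotic cells, while Socs3 had 15 and 2 called.

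Many regions lay nearer to another gene. The member was the nearest protein-coding gene for 63 of 92 SOX2 regions and for 34 of 66 CTCF regions. Among the 23 CTCF regions that both mitotic libraries called, it was the nearest for 10. Other genes in the windows included Stat5a and Stat5b beside Stat3 and E2f2 beside Id3. Gene bodies held 18 SOX2 and 16 CTCF regions. An asynchronous CTCF region overlapped 16 of the 92 SOX2 regions (17.4%, against 20.3% of all SOX2 regions), and an asynchronous SOX2 region overlapped 17 of the 66 CTCF regions (25.8%, against 18.3% of all CTCF regions).

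Other genes of the pathways were counted in the same way. Of 28 further genes of the LIF and JAK-STAT pathway, each with at least 1 SOX2 region, 0 had one called in both mitotic libraries, 6 in 1 library and 22 in neither. Of 28 further BMP, SMAD and ID genes 0 had one called in both, 4 in 1 library and 24 in neither. Together 0 of 56 genes had a SOX2 region called in both, against 3.67% of all protein-coding genes, and 10 (17.9%) had one called in one or both, against 17.6%. The share with one or both thus lay at that of all genes. All 10 were called in mitotic replicate 1, and replicate 2 had no SOX2 interval at any of the 56. A CTCF region called in both was present at 25 of the 28 LIF and JAK-STAT genes and at 21 of the 28 BMP genes, against 63.6% of all protein-coding genes. Among genes with at least 4 CTCF regions, the highest shares called in both were at Lif and Osm, neighbouring cytokine genes with overlapping windows, where 4 of 7 regions were called. Smad5, a BMP signal carrier, had 3 of 7. Gdf3, a ligand of the same family, had 6 of 15, and Socs1, a relative of Socs3, had 2 of 5, a share that Stat5a equalled with 2 of 5.

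The protein-coding gene closest to each member in its 8 interval numbers was found by the Euclidean distance of log2(number + 1), over 8 libraries. Bmp4 lay closest to Nme9 (distance 0.0931), Stat3 to Fbxl2 (0.0995) and Jak1 to Trem3 (0.193). Id3 lay closest to Tfap4 (0.315), Id2 to Rps6ka2 (0.348) and Il6st to Ptk6 (0.367). Id1 lay closest to Mgat5 (0.454), Lifr to Etv6 (0.457) and Bmpr1a to Cxxc5 (0.466). Socs3 had the least close match, Lamtor2 at 0.620, which had 3 and 1 SOX2 intervals in mitotic cells, against 19 and 20 in asynchronous cells.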

How the data were processed

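ChIP-seq of SOX2 and CTCF in mitotic and asynchronous cells was used, 2 libraries per group, grouped by the sample titles. Libraries of histone marks (52) and input (26) were left out. Tools named in the submitters' processing notes are MACS2 2.1.1.20160309, SAMtools, BWA 0.7.17 and CASAVA 1.4, with the build mm10, but which options they ran with is not given in the sources used here. Each list is a narrowPeak file of 1 library as the authors deposited it, with a fold (a ratio of summit to background coverage), a −log10 p-value and a −log10 q-value per peak, besides a display score and summit position. The lowest −log10 q per deposited list was 1.31 to 1.48, near a threshold of 0.05.

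Fold was used to rank or describe peaks within a list. Summit coverage and background were solved from fold and −log10 p under a Poisson model. In a sample of up to 2000 peaks per library, 97.8% to 100% gave whole reads within 0.002. PCR reads are not independent molecules, so reads and intervals cover counting error only. Peaks were merged, overlapped and counted in Python 3.11.15 with pandas 2.3.3, numpy 2.4.6 and scipy 1.17.1, tested on simulated intervals against bedtools 2.31.1. Gene bodies and promoter windows came from RefSeq (GRCm38.p6). Groups were compared by the two-sided exact permutation test over libraries.

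All 10 members are named. Per member the strongest region was named, for SOX2 every region called in a mitotic library, for CTCF the 10 strongest called in both, and each mitotic interval outside the merged regions. Further pathway genes were named where both mitotic SOX2 libraries called a region, or for the 5 highest CTCF shares among genes with at least 4 regions. The members and lists were chosen with earlier results of these data known. Alternatives were peaks with a fold of 5 or more, peaks with a −log10 q of 5 or more, windows of 10 and 100 kb, regions nearest to the member, an overlap of 50%, summits no more than 100 bp apart, regions found in either asynchronous list, base pairs covered, matching replicate numbers, and leaving out each library.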

Additional observations from a re-analysis of the deposited data

How the results depend on the processing

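The lower number of intervals in mitotic cells kept its direction under all 11 alternatives for SOX2 (mitotic over asynchronous 0 to 0.0565, against 0.0338) and for CTCF (0.227 to 0.341, against 0.285). The CTCF minus SOX2 share kept its direction under all 13 (19.3 to 37.8 points). No design here can pass 0.05. Leaving out a library gave a SOX2 ratio of 0.0150 (without mitotic replicate 1) to 0.0526 (without mitotic replicate 2), a CTCF ratio of 0.268 to 0.304 and a difference of 22.0 to 32.7 points.

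The number of SOX2 regions that both mitotic libraries called, 2, became 0 at a −log10 q of at least 5 and at a fold of at least 5, and 1 with summits within 100 bp. Chosen after seeing the data, leaving out a mitotic library gave 2 without replicate 1 and 8 without replicate 2. The mean SOX2 share was 0% at a fold of at least 5, and 2.17% without mitotic replicate 1 to 8.70% without mitotic replicate 2. The 23 CTCF regions called in both became 13 at a fold of at least 5, 10 in a 10 kb window, 39 in a 100 kb window and 10 with the member as nearest gene, the last 3 by construction from other sets of regions; without a library it was 23 to 25. The CTCF share of 36.4% was 40.4% at a −log10 q of at least 5, 30.9% with the member as nearest gene and 22.4% for regions of either asynchronous library. It was 25.3% without asynchronous replicate 2 and 28.6% without asynchronous replicate 1, where regions of 1 list need no second peak, and up to 37.9% without mitotic replicate 2. The 16 SOX2 regions that overlap CTCF became 8 at a −log10 q of at least 5, 4 at a fold of at least 5 and 9 with summits within 100 bp. Where no construction is named, the cause was not tested.

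With the replicate number as a block, the SOX2 ratio was 0.0319, the CTCF ratio 0.285, the SOX2 share 3.52%, the CTCF share 26.8% and their difference 23.3 points, with 2 SOX2 and 23 CTCF regions called in both. The libraries share only a number, and nothing in the labels pairs them.

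A region missing from a mitotic list was not called there, which does not show that it was unbound. In mitotic SOX2 replicate 2 the lowest local background was 2.92 reads, the smallest of the 8 libraries, and the lowest called summit held 15 reads. Mitotic replicate 1 had a lowest background of 5.47 reads and 1976 intervals, against 5.44 reads and 90266 intervals in asynchronous replicate 1. These are lowest values over peaks and do not stand for read totals.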

Other observations

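Many asynchronous SOX2 regions at the loci were found in only 1 of the asynchronous libraries. Of 161 regions in either list, 92 were in both (57.1%, against 53.4% of all SOX2 regions of the genome), 56 in replicate 1 alone and 13 in replicate 2 alone. The share in both was 29.4% at Stat3 (5 of 17 regions), the lowest of the 10 members, and 75.0% at Socs3 (15 of 20). For CTCF 66 of 107 regions were in both lists (61.7%, against 76.4% of all), 25 in replicate 1 alone and 16 in replicate 2 alone. At Id2 2 of 7 CTCF regions were in both (28.6%) and at Il6st 4 of 5 (80.0%). These are values of single loci with no test.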
